A study of Mus musculus with 6 samples.

Results

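The genes examined here are the classical axon guidance families of the mouse: the Eph receptors and their ephrin ligands, the semaphorins of classes 3 to 7 with their plexin and neuropilin receptors, Slits and Robos, and netrins with Dcc, the Unc5 receptors and the netrin-G proteins. They were chosen by gene name from lists of genomic regions bound by TERT, the catalytic subunit of telomerase. The rule matches 72 genes of the RefSeq table, 71 of them protein-coding, and 66 were the nearest gene of at least 1 region. These genes hold 332 of the 41527 regions on chromosomes 1 to 19, X and Y. The remaining match, Plxna4os1, is a non-coding gene that lies antisense at the plexin gene Plxna4 and is counted apart where protein-coding genes are meant.

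TERT was mapped by CUT&Tag, a method that tethers a transposase to antibody-bound chromatin so that nearby DNA is cut and receives sequencing adapters. The cells were cortical and hippocampal primary neurons of C57BL/6 embryos at E15-18. Of 6 samples, 3 were given the telomerase inhibitor BIBR1532 at 2 µM for 24 h, and 3 were given DMSO as vehicle (called untreated in one label field). Each condition reached the deposited lists as 1 pool of its 3 samples, so no region has a replicate value and no test across samples was possible. The lists are named BIBR1532 (16153 regions stronger in the treated pool), vehicle (18562 stronger in the DMSO pool) and common (6812 regions of both). The first 2 are called condition-specific below. Which list belongs to which condition was read from the order of the conditions in the names of the lists, so each direction below is likely and not stated outright. Per-sample depth is unknown from the lists. No untagged or control-antibody library was analysed here.

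Growing axons steer by guidance cues that they read through receptors on the growth cone. Ephrins are bound to the cell surface and act on Eph receptor tyrosine kinases at cell contacts. Class 3 semaphorins, Slits and netrins are secreted and act at a distance, class 3 semaphorins mostly through neuropilin and plexin complexes, Slits through Robo receptors and netrins through Dcc (attraction) and Unc5 proteins (repulsion). Many of these genes remain active in cultured cortical and hippocampal neurons, where they shape dendrites and synapses. They are also long genes, many of them set in wide gene-poor stretches, which bears on any count of regions by nearest gene: the median length of the 71 genes was 53.4 kb, against 17.2 kb over all 21887 protein-coding genes.

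The sequences that carry the promoter results are those upstream of start sites on which a region lay. Shown are the 250 bases before the RefSeq start site of 7 genes, those of each list whose promoter region covered most of the stretch: 2 from the BIBR1532 list, 2 from the vehicle list and 3 from the common list. They are from RefSeq on GRCm38.p6 (the build also called mm10), read 5′ to 3′ on the strand of the gene, and capitals mark the bases inside the deposited region. The stretches of Efna4 (chr3:89338029-89338278, minus strand), an ephrin-A ligand gene, and of Efnb1 (chrX:99135811-99136060, plus strand), an ephrin-B ligand gene, were covered over 135 and 112 bases by BIBR1532 regions.
Efna4: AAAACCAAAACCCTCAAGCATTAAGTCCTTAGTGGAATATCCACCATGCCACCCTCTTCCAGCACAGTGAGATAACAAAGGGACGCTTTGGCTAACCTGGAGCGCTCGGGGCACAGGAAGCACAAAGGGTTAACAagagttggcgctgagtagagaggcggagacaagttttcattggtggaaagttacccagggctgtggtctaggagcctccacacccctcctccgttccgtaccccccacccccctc
Efnb1: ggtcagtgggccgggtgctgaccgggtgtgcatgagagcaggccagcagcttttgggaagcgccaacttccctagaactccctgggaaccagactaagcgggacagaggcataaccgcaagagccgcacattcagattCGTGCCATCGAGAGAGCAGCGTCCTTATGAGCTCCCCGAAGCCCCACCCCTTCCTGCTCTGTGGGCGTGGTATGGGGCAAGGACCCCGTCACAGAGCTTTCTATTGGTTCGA

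The stretches of the receptor genes Epha5 (chr5:84417383-84417632, minus strand) and Robo3 (chr9:37433176-37433425, minus strand) were covered over 250 and 204 bases by vehicle regions.
Epha5: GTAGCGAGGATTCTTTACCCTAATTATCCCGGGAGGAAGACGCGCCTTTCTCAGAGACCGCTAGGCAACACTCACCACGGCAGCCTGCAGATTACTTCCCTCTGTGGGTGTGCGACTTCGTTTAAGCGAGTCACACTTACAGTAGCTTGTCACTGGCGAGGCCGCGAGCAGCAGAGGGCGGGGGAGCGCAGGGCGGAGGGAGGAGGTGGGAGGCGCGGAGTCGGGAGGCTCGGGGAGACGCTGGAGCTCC
Robo3: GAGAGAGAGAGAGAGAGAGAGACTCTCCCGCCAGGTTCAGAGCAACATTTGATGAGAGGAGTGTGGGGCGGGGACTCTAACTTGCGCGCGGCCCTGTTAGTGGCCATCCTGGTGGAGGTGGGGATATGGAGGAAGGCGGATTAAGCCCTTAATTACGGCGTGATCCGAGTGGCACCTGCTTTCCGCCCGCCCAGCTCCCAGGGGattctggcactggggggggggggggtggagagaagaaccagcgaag

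Those of the plexin gene Plxna3 (chrX:74328816-74329065, plus strand), the transmembrane semaphorin gene Sema6c (chr3:95160170-95160419, plus strand) and the Eph receptor gene Epha10 (chr4:124881535-124881784, plus strand) were covered over all 250 bases by common regions.
Plxna3: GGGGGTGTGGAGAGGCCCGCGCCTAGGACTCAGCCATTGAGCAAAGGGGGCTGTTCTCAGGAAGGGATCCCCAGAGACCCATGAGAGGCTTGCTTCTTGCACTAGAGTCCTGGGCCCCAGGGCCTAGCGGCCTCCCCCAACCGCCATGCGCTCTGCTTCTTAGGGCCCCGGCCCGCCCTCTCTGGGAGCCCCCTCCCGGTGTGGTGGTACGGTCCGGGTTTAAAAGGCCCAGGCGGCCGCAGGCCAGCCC
Sema6c: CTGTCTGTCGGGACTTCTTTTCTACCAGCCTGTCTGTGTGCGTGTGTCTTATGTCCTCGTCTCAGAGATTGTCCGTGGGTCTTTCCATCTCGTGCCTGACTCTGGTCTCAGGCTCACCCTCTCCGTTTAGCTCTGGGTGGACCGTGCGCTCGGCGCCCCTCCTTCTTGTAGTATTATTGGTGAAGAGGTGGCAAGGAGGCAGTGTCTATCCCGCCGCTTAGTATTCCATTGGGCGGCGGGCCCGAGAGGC
Epha10: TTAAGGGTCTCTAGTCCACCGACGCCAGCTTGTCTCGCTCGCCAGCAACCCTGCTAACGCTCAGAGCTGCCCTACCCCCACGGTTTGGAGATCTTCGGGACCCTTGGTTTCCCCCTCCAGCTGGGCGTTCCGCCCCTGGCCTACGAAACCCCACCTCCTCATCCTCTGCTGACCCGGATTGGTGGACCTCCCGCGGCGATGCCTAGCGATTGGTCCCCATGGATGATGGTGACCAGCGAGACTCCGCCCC

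The GC content of the 7 stretches was 54.4% to 68.0%. The GC box GGGCGG, searched on both strands, occurred 2 times in that of Epha5 and 3 times in that of Robo3, 1 or 2 times in each of the common ones, and 0 times in those of Efna4 and Efnb1. The motif is common at promoters: 54 of the 77 RefSeq windows of the axon guidance genes held it (70.1%, windows from 250 bases before to 50 after a start site, 61 genes matched), against 35.7% of 32851 windows of all genes, whose median GC content was 52.7% against 64.0% for the axon guidance windows. The E-box CACGTG was in 6.49% of the axon guidance windows against 7.15% of all windows, the telomere repeat unit TTAGGG in 13.0% against 10.6%, the core CTTTG of TCF/LEF sites in 39.0% against 53.9%, and CCAAT in 28.6% against 37.4%, all on both strands and with overlaps between motifs left as they are. Windows without a promoter region in any list (50 windows of 39 genes) had a median GC content of 64.0%, that of the whole set, and 66.0% of them held the GC box. Among windows of genes with a promoter region, each counted under 1 list, the GC box was in 3 of 5 (60%) for the BIBR1532 list. It was in 10 of 11 (90.9%) for the vehicle list and 8 of 11 (72.7%) for the common list. The BIBR1532 windows are those of 5 of the 7 genes with such a promoter region. Ephb6, with promoter regions in the BIBR1532 and common lists, is counted under common alone, and its upstream stretch held 5 matches. The lists were not compared by a test on so few windows. These matches describe letters and not binding sites.

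**Figure D1:**
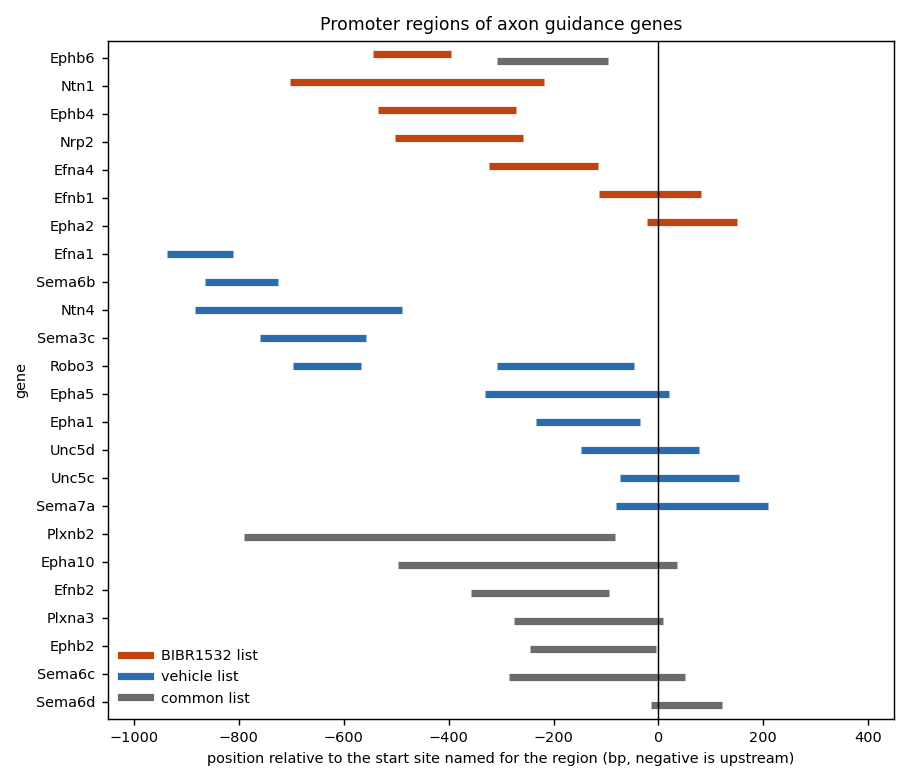
Regions of the promoter class at axon guidance genes, drawn as bars from region start to region end in bp from the start site that the annotation names for each, with the BIBR1532 list in red, the vehicle list in blue and the common list in grey. Each of 23 genes has bars of 1 colour, and Ephb6 alone has 2 colours; Robo3 has 2 vehicle bars.

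TERT signal was shared by both conditions at the promoters of 8 axon guidance genes. These were the receptor genes Epha10, Ephb2, Ephb6, Plxna3 and Plxnb2 and the ligand genes Efnb2, Sema6c and Sema6d, all of which encode proteins of the cell membrane. They are 11.3% of the 71 genes, against 14.2% of all protein-coding genes, a share close to the background. A promoter region here is one that the deposited annotation classes as promoter-TSS, the interval around a transcription start site. Epha10 and Ephb6 encode Eph receptors without kinase activity. The widest of these regions covered 708 bp at Plxnb2 and 531 bp at Epha10, and the narrowest 136 bp at Sema6d. The common region at Ephb2, which encodes a receptor for ephrin-B, spanned 136836017 to 136836257 on chromosome 4, with its centre 125 bp upstream of the start site. Ephb2 also had 2 common regions in intron 3 of 15. Sema6d had 4 common regions, the most of the 72 genes. One of them lay at a promoter and another 546 bp downstream of a different start site in intron 1 of 20. Sema6c had a second common region 259 bp downstream of its start.

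None of the 8 encodes a class 3 semaphorin, Slit or netrin. Of the 14 genes for class 3 semaphorins, Slits and netrins 0 had a common promoter region, which allows a share of up to 21.4% (3 of 14), and 8 of the 57 other genes of the set that code for protein had one. This split was made after the values were seen and was not tested. The secreted genes had 3 common regions elsewhere: 2 between 3.36 and 4.11 kb upstream of the Sema3b start and 1 in intron 3 of 36 of Slit1. The common list as a whole was less centred on start sites at axon guidance genes. Of its 27 regions there, 11 (40.7%) had their centre within 1 kb of a start site and 5 (18.5%) lay beyond 100 kb, against 72.7% and 4.04% over the whole common list.

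Regions of the BIBR1532 list lay at 7 promoters, those of Efna4, Efnb1, Epha2, Ephb4, Ephb6, Nrp2 and Ntn1. That is 9.86% of the 71 genes, against 6.89% of all protein-coding genes. Of the 7 genes 5 belong to the Eph and ephrin families, which make up 22 of the 71 genes (31.0%). Genes of these families also had promoter regions in the vehicle list (Efna1, Epha1 and Epha5) and the common list (Epha10, Ephb2, Ephb6 and Efnb2). Whether the lists differ in this was not tested. The other 2 BIBR1532 promoters are those of Nrp2, which encodes neuropilin-2, a co-receptor of class 3 semaphorins, and Ntn1, which encodes the secreted cue netrin-1. The region of highest score was at Efna4, where the authors' score, a value that ranks regions within 1 list, was 11.7, followed by Ephb4 at 9.42, Nrp2 at 7.02, Ntn1 at 6.78, Efnb1 at 3.96, Epha2 at 1.54 and Ephb6 at 1.53. Epha2 and Ephb6 are near the lower end of the list, whose smallest score was 1.05, and both drop out at a score of at least 2. The Ntn1 region was 484 bp wide, at 68387045 to 68387528 on chromosome 11, and its centre was 460 bp upstream of the start. At Ephb6 the BIBR1532 region lay 87 bp from the common one, so that promoter carried shared signal too.

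Regions of the vehicle list lay at 10 promoters, those of Efna1, Epha1, Epha5, Ntn4, Robo3, Sema3c, Sema6b, Sema7a, Unc5c and Unc5d, which is 14.1% against 7.37% of all protein-coding genes. They fall on ligands and receptors alike: 5 are genes of ligands (Efna1, Ntn4, Sema3c, Sema6b and Sema7a, which encodes a semaphorin anchored to the membrane by lipid) and 5 of receptors. Robo3, a divergent Robo receptor known for its part in axon crossing at the midline, had 2 promoter regions, at 37433222 to 37433483 and 37433742 to 37433872 on chromosome 9. The scores were 7.84 at Efna1, 7.35 at Sema6b, 7.25 and 5.19 at Robo3, 7.12 at Epha1, 6.84 at Ntn4, 6.61 at Epha5, 5.19 at Sema3c, 3.92 at Unc5d, 3.58 at Unc5c and 2.17 at Sema7a. The scores of Sema3c and of the second Robo3 region are the most frequent value of the vehicle list. Both netrin receptors in the list, Unc5c and Unc5d, mediate repulsion, and their regions were centred 40 bp downstream and 36 bp upstream of the start.

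Promoter regions in both condition-specific lists were found at 0 axon guidance genes, against 0.315% of all protein-coding genes. In any list 24 of the 71 had one (33.8% against 24.4% of all). When genes were counted by a region centre within 1 kb of a start site, 15 protein-coding genes had a BIBR1532 region (21.1%, against 11.1% of all), 14 a vehicle region (19.7% against 11.6%) and 9 a common region (12.7% against 19.2%), and Ntn4 alone (1.41%, against 1.29%) had both a BIBR1532 region (670 bp downstream) and a vehicle region (686 bp upstream). This wider window added first exons and introns. For BIBR1532 these included exon 1 of 36 of Plxnd1, exon 1 of 16 of Unc5a and exon 1 of a non-coding transcript of the repellent ligand gene Slit2. The Slit2 region had a low score, 1.42. For vehicle they included the 5′ UTR of Sema3a, which encodes a repellent secreted semaphorin, and that of Sema4b, where the region at 80198457 to 80198732 on chromosome 7 had the highest vehicle score of all axon guidance regions, 11.8. Whether these single regions differ between cultures cannot be said, since each rests on 1 pool per condition.

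**Figure D2:**
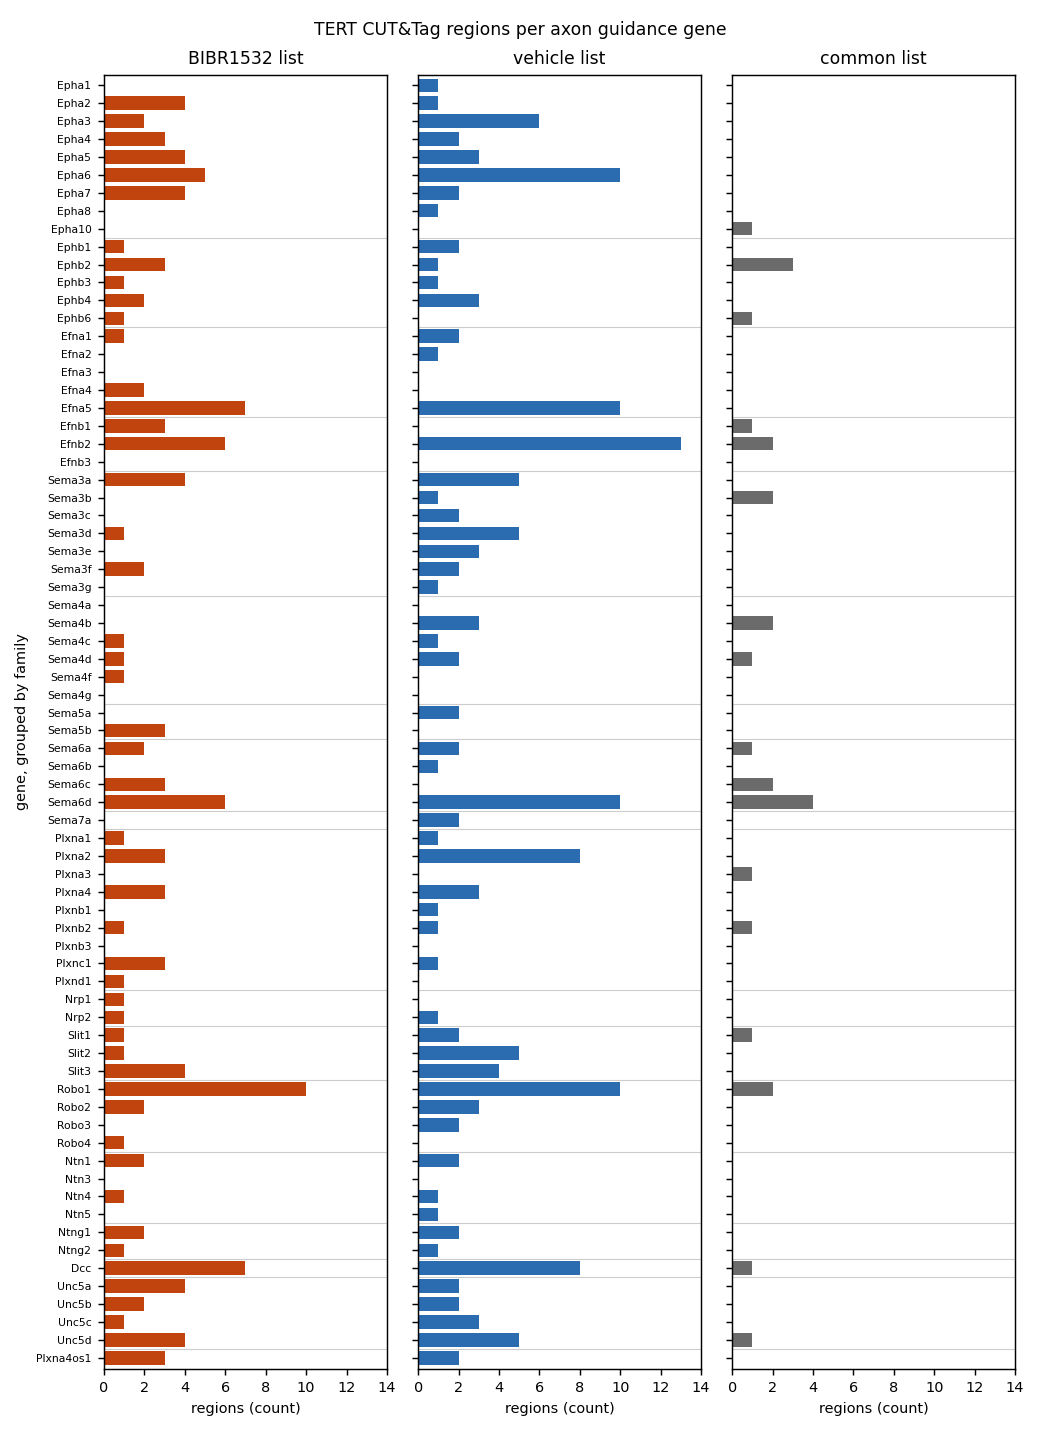
Number of regions whose nearest gene is each of the 72 genes, in the BIBR1532, vehicle and common lists from left to right, with genes grouped by family and grey lines between families. Robo1 has 10 BIBR1532 and 10 vehicle regions, Efnb2 has 6 and 13, and 6 genes have none.

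At least 1 region was assigned to 65 of the 71 protein-coding genes (91.5%, against 59.1% of all protein-coding genes). The BIBR1532 list named 49 of the 71 protein-coding genes (69.0%, against 34.5% of all protein-coding genes) and the vehicle list 54 (76.1% against 37.5%). The common list named 17 (23.9%, against 23.9% of all). Efna3, Efnb3, Ntn3, Plxnb3, Sema4a and Sema4g had 0 regions in every list, and Epha10 and Plxna3 had a common region alone. Genes with more sequence had more regions, and within each class of gene length the share with a condition-specific region was also above that of all genes. It was 15 of 21 (71.4%) under 20 kb, against 38.1%; 15 of 17 (88.2%) from 20 to 100 kb, against 62.5%; 17 of 17 from 100 to 300 kb, against 83.6%; and 16 of 16 at 300 kb and more, against 92.5%. The median number of regions in these classes was 1, 2, 4 and 7.5 for axon guidance genes, against 0, 1, 2 and 5 for all genes. Regions in the body of their own nearest gene numbered 5.81 BIBR1532 and 5.81 vehicle per Mb over the 13.6 Mb of the 71 genes. Over all protein-coding genes they numbered 6.46 and 7.30 per Mb. Regions inside a gene but nearer the start site of another, such as those of Plxna4os1 within Plxna4, are left out. These values are therefore not the full density within gene bodies. How far the surrounding gene-poor sequence sets the counts by nearest gene was not tested.

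**Figure D3:**
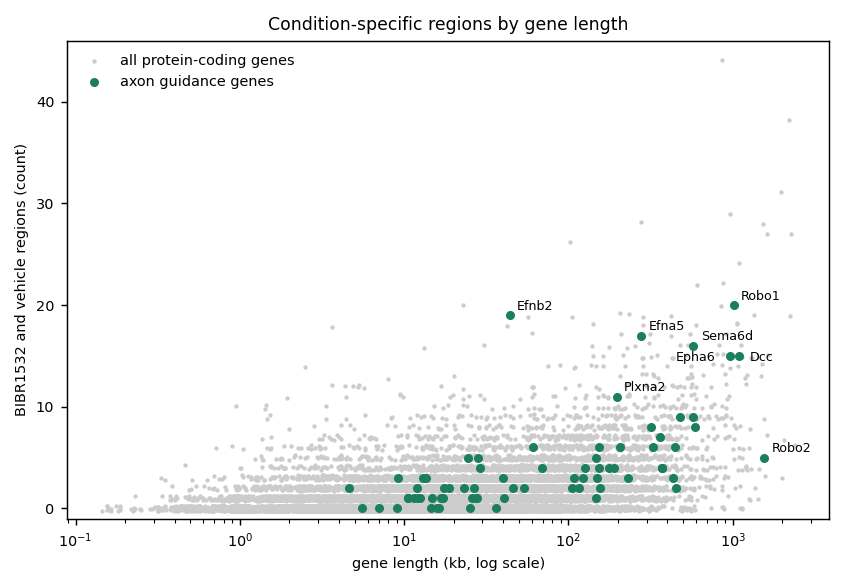
BIBR1532 and vehicle regions together (count, y axis; grey points are moved by up to 0.25 to separate them) against gene length in kb on a log axis, for all protein-coding genes in grey and the axon guidance genes in green. Robo1 has the most of the green points with 20 regions, and Efnb2 has 19 at a length of 44.0 kb.

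Vehicle regions were the more numerous at these genes. In all, 133 BIBR1532 and 172 vehicle regions were assigned to them, a BIBR1532 share of 43.6% (exact 95% interval 38.0 to 49.4, counting error only), against 46.5% over all 34715 condition-specific regions, which lies inside the interval. More signal per cell and more cells with signal cannot be told apart in pooled cultures. Of the 64 genes with a condition-specific region, 17 (26.6%) had more BIBR1532 regions, against 38.1% of all 13643 such genes, 32 (50%) had more vehicle regions, against 46.7%, and 15 had equal numbers. Ligand genes had 55 BIBR1532 and 86 vehicle regions (39.0%, interval 30.9 to 47.6) and receptor genes 75 and 84 (47.2%, interval 39.2 to 55.2), intervals that overlap each other and hold the share over all regions. Median widths were 273 and 232.5 bp. The score was 6.34 at 63 BIBR1532 regions (47.4%) and 5.19 at 93 vehicle regions (54.1%), the most frequent value of each list, against 46.8% and 50.2% of the whole lists.

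Eph receptors and ephrins held 108 of these regions. Among ephrin ligands, Efna5, a topographic guidance cue, had 7 BIBR1532 and 10 vehicle regions, Efnb2 had 6 and 13, and Efnb1 had 3 and 0. The Efnb1 region in intron 1 of 4, at 99144163 to 99144855 on chromosome X, scored 13.2, among the 5 highest BIBR1532 scores of the families. Among EphA receptors, Epha6 had 5 and 10, Epha3 2 and 6, Epha5 4 and 3, Epha7 4 and 2, Epha2 4 and 1, and Epha4, a receptor for ephrins of both classes, 3 and 2. Over the 9 EphA genes the counts were 22 and 26, over the 5 EphB genes 8 and 7. An Epha4 region 339 kb upstream of its start, 1186 bp wide, scored 13.2. Within the EphB genes Ephb4 had a BIBR1532 region 403 bp and a vehicle region 2239 bp upstream of the start, 1585 bp apart, both with high scores (9.42 and 9.60).

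The 7 genes of class 3 semaphorins, the secreted members of the semaphorin family in vertebrates, had 7 BIBR1532 and 19 vehicle regions (26.9%, interval 11.6 to 47.8, which still holds 46.5%), and 6 of them had more vehicle regions while Sema3f had 2 of each. The most frequent score of each list was held by 1 of these BIBR1532 regions and by 12 of these vehicle regions, and without them the counts were 6 and 7 (46.2%, interval 19.2 to 74.9), with Sema3a at 4 and 2. Sema3a had 4 and 5, Sema3d 1 and 5, Sema3e 0 and 3, Sema3c 0 and 2, Sema3b 0 and 1 and Sema3g 0 and 1. Sema3a, Sema3c, Sema3d and Sema3e all lie on chromosome 5, so these counts are not independent draws from the genome. The 6 class 4 genes had 3 and 6, the 2 class 5 genes 3 and 2 (Sema5b 3 and 0, Sema5a 0 and 2), the 4 class 6 genes 11 and 13 (Sema6d 6 and 10, Sema6c 3 and 0), and Sema7a 0 and 2. Sema6c thus had 0 vehicle regions, with a BIBR1532 region 304 bp from its common ones and 2 at the far end of the gene. The Sema5b regions had low scores, 2.58 at most.

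Plexins, the signalling receptors for semaphorins, were near the average, with 12 BIBR1532 and 15 vehicle regions over 9 genes. Plxna2 had 3 and 8, Plxna4 3 and 3 and Plxnc1 3 and 1. The 3 BIBR1532 regions of Plxna2 lay in intron 3 of 31, 70.0 to 87.9 kb downstream of the start, and 1 of them, at 194707537 to 194707862 on chromosome 1, had the highest BIBR1532 score of the families, 13.3. The antisense gene Plxna4os1 had 3 and 2, all in introns of Plxna4 and none in its own body. The neuropilin genes Nrp1 and Nrp2, which encode semaphorin co-receptors, had 1 and 0, and 1 and 1.

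Robo1 had the most condition-specific regions of any axon guidance gene, 10 of each list. Of these, 9 BIBR1532 and 9 vehicle regions lay beyond 100 kb from its start, and 1 BIBR1532 region in exon 25 of 29 scored 12.6. Robo2, the longest gene of the set at 1555 kb, had 2 and 3. The Slit ligands of these receptors had 6 and 11. Slit3 had 4 and 4, Slit1 1 and 2, and Slit2 1 and 5. At Slit2 the BIBR1532 region was 262 bp downstream of the start, whereas the 5 vehicle regions were all intergenic, 237 to 974 kb upstream. That BIBR1532 region scored 1.42, near the smallest score of its list (1.05), and drops out at a score of at least 2.

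Netrin genes had few regions and the netrin receptors more. Ntn1 had 2 and 2, Ntn4 1 and 1, and Ntn5 0 and 1. Dcc, the attractive netrin receptor, had 7 BIBR1532 and 8 vehicle regions, of which 6 and 5 lay within its body of 1098 kb, and a common region in intron 1 of 28 that was 657 bp from a vehicle region. Among the repulsive receptors Unc5d had 4 and 5, Unc5a 4 and 2, Unc5b 2 and 2 and Unc5c 1 and 3. The netrin-G genes Ntng1 and Ntng2, whose proteins are tethered to the membrane and do not bind Dcc, had 2 and 2, and 1 and 1. A BIBR1532 region in intron 3 of 7 of Ntng1 was 6011 bp wide and was annotated as low-complexity sequence.

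**Figure D4:**
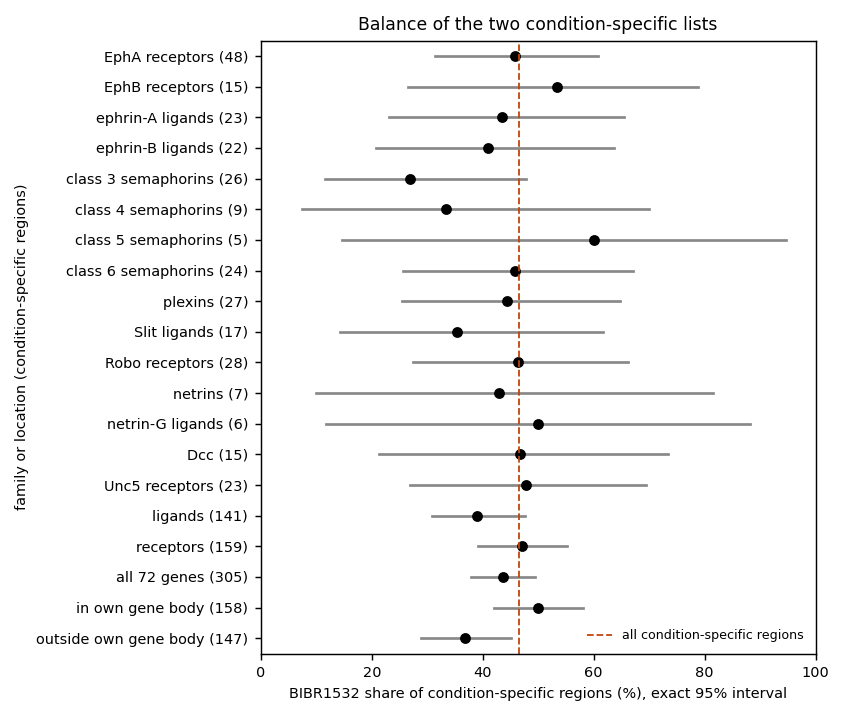
BIBR1532 share of the condition-specific regions (%, points) with exact 95% binomial intervals (lines) for families with at least 5 such regions, for ligands, receptors and all 72 genes, and by location in or outside the body of the nearest gene; the number of regions is in brackets. The dashed line marks 46.5%, the share over all regions, and the lines of all groups except regions outside the gene body cross it.

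Of the 71 protein-coding genes 21 had at least 5 condition-specific regions (29.6%, against 6.43% of all), as did Plxna4os1. Of these 22, 9 had at least 2 times as many in one list as in the other. Epha2, Epha7 and Unc5a were higher in BIBR1532, 13.6% against 18.1% of the 1789 genes of any kind with 5 or more regions. Efnb2, Epha3, Epha6, Plxna2, Sema3d and Slit2 were higher in vehicle, 27.3% against 27.7%. The axon guidance genes thus passed this ratio about as often as other genes did. An exact two-sided binomial test of each gene against the share of 46.5% compares the lists and not the conditions: 0 of 64 axon guidance genes and 0 of 13643 genes (0%) passed at a Benjamini-Hochberg adjusted p under 0.05 over all genes, and at an unadjusted p under 0.05 there were 0 of 64 and 112 (0.821%). The smallest unadjusted exact binomial p of the set was 0.101, for Efnb1, Sema5b and Sema6c at 3 and 0 each, and that of the 22 genes was 0.191, for Epha2 at 4 and 1, all with an adjusted p of 1. Efnb2, with the largest difference in number, had an unadjusted exact binomial p of 0.251 and an adjusted p of 1. The 3 Sema5b regions scored 2.58 at most, so none remained at a score of at least 3, where Efnb1 and Sema6c each kept a difference of 2. A gene with 3 regions or fewer could not reach an unadjusted p under 0.05 in this test, since 3 and 0 gave 0.101. With so few regions per gene, the count of 0 does not show that these genes were unchanged. Without the regions that carry the most frequent score, Efnb2 alone of the 9 kept its call, at 1 and 7, and the other 8 fell under 5 regions. Of these 8, 6 were still past the ratio: Epha2 and Epha7 (3 and 0 each), Epha3 and Slit2 (1 and 3 each), Sema3d (0 and 2) and Unc5a (1 and 0). Any count against 0 passes the ratio, so this says little about direction. Epha6 (1 and 1) and Plxna2 (2 and 2) were not past it. With regions assigned by gene body, Efnb2, Epha6 and Slit2 each had 1 more BIBR1532 than vehicle region.

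Within the body of the nearest gene there were 79 BIBR1532 and 79 vehicle regions (50%, interval 42.0 to 58.0), and outside it 54 and 93 (36.7%, interval 28.9 to 45.1). The intervals overlap, and the difference between the 2 locations was not tested. Over all genes the shares were 46.9% in the body and 46.2% outside it. By class, introns held 74 and 76 regions and intergenic sequence 44 and 81, an intergenic BIBR1532 share of 35.2% (interval 26.9 to 44.2) against 45.8% over all intergenic regions. These intervals count regions as independent and were not adjusted for the number of splits examined. With regions of the most frequent score left out, a setting added after the values were seen, the counts were 43 and 45 within the body (48.9%), 27 and 34 outside it (44.3%, interval 31.5 to 57.6) and 19 and 26 in intergenic sequence (42.2%, interval 27.7 to 57.8), and the last 2 intervals hold the share of 48.2% over all regions in that setting. With every region that overlapped a gene or its 5 kb flanks assigned to that gene, in place of the nearest start site, the counts were 135 and 137 (49.6%).

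Among single genes, Efnb2 had 4 BIBR1532 and 12 vehicle intergenic regions, Slit2 and Plxna2 each 0 and 5, Sema6d 3 and 8, Epha6 3 and 7 and Sema3d 0 and 3. Without Efnb2 the intergenic counts were 40 and 69 (36.7%, interval 27.7 to 46.5). That interval holds the 45.8% over all intergenic regions without Efnb2. Most of these regions carry the most frequent score of their list. Leaving those out, Efnb2 had 0 and 6, Slit2 0 and 3, Sema3d 0 and 1, Plxna2 0 and 0, Sema6d 2 and 1 and Epha6 1 and 0, and the intergenic counts without Efnb2 were 19 and 20 (48.7%). The common promoter region of Efnb2 had a BIBR1532 region 791 bp away, 866 bp downstream of the start, while 11 of the 13 vehicle regions of Efnb2 lay beyond 100 kb, 142 to 1372 kb away in sequence where Efnb2 has the nearest start site, and 9 of those between 655 and 1372 kb. Its gene body, 44.0 kb long, held 1 region of each condition-specific list. Assignment of such distant regions to Efnb2 is by position alone.

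**Figure D5:**
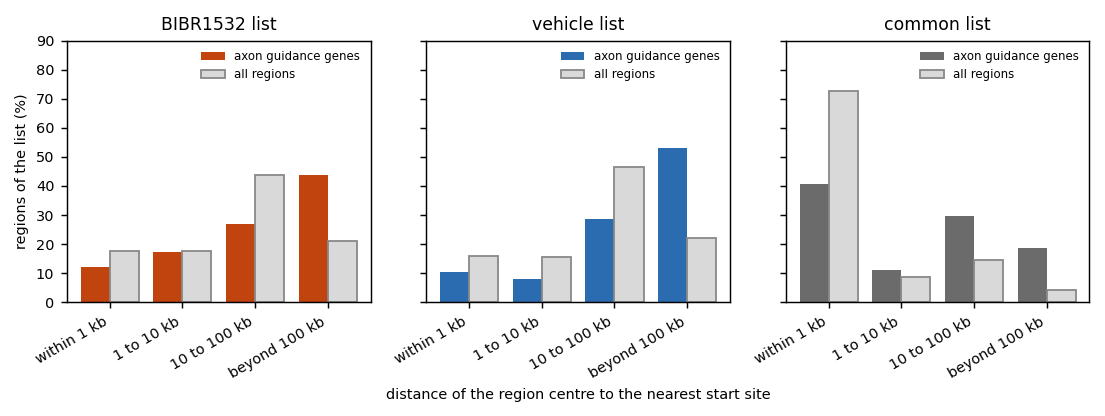
Share of regions (%) by distance between region centre and nearest start site, for axon guidance genes (coloured bars) and for all regions of the same list (grey bars), in the BIBR1532, vehicle and common lists. Beyond 100 kb the axon guidance bars reach 43.6%, 52.9% and 18.5%, against 21.0%, 22.0% and 4.04% for all regions.

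Many of the regions lay far from the start site of their gene. Beyond 100 kb lay 58 of the 133 BIBR1532 regions (43.6%) and 91 of the 172 vehicle regions (52.9%), against 21.0% and 22.0% of the whole lists. Beyond 500 kb lay 16 BIBR1532 (12%) and 31 vehicle regions (18.0%), against 2.73% and 2.83%. Within 10 kb of a start site the direction was the other way, with 39 BIBR1532 and 32 vehicle regions (54.9%, interval 42.7 to 66.8), against 49.3% over all genes, inside the interval. Repeats were annotated at 23 BIBR1532 regions (17.3%) and 35 vehicle regions (20.3%), against 25.2% and 25.5% of the whole lists. LINE-1 elements took 7 (5.26%) and 17 (9.88%), against 6.80% and 7.0%. CpG islands were the detailed annotation of 9 BIBR1532 regions (6.77%) and 2 vehicle regions (1.16%), against 2.16% and 1.89%.

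Genes that act downstream of or beside these receptors were counted in the same way. Of 65 genes for cytoskeletal effectors, small GTPases, kinases and co-receptors, 14 (21.5%, against 14.2% of all protein-coding genes) carried a common region at the promoter. Among them were the cofilin kinase genes Limk1 and Limk2, the Src-family kinase gene Fyn, the Slit-Robo GTPase-activating gene Srgap2 and Dpysl3, a member of the collapsin response mediator family. In this list 122 BIBR1532 and 147 vehicle regions gave a share of 45.4% (exact interval 39.3 to 51.5). Of the 65 genes, 21 had at least 5 condition-specific regions, against 6.43% of all protein-coding genes. Among these 21, 2 were higher in BIBR1532 (Flrt2 at 6 and 3, Mical2 at 5 and 1), against 18.1% of all 1789 such genes. Another 4 were higher in vehicle (Ablim1 at 1 and 6, Lrrc4 at 4 and 8, Rgmb at 0 and 7, Vav3 at 2 and 4), against 27.7%. The difference in common promoters between this list and the 8 of 71 above was not tested.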

How the data were processed

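The deposited files are 3 lists of regions with a score each. Per the submitters' processing notes, CASAVA 1.8, Bowtie2, Picard and MACS2 2.1.2 were used, with no role given, on mm10. Per the file headers, regions were annotated with annotatePeaks.pl, which gives each region's class and nearest start site; the folder named there points to the bdgdiff step of MACS2. The sources used here do not state the scaling between pools. The score is the authors' deposited value, used to rank regions within a list. Both condition-specific lists were stored as UTF-7 and decoded.

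Counting used chromosomes 1 to 19, X and Y, by gene, class and list. Gene lengths, biotypes and promoter sequences are from RefSeq (GRCm38.p6), matched by gene ID; 61 of 72 genes had a promoter window. Intervals are exact (Clopper-Pearson) at 95% and cover counting error only; the limit beside a count of 0 is 3 counts of the total. The per-gene exact binomial test was tried on simulated data in which each gene held many times its real number of regions. Recovery of changed genes at the real numbers was not tested. Counts are given for genes family by family, and described further are the member of each family with most condition-specific regions, those with a promoter region, those past the ratio, the 5 largest differences each way, the 5 highest scores of each list, and Dcc, Robo1, Slit2, Ntn1, Epha4, Efnb2, Sema3a, Plxna4 and Nrp1. The families, lists and tests were chosen with earlier results of these data known. Scripts ran on Python 3.11.15 with scipy 1.17.1 (tests), pandas 2.3.3 (tables), numpy 2.4.6 and matplotlib 3.10.9 (figures). Alternatives covered score, width, merging, distance, gene body, tied scores, promoter window, contigs and leaving out Robo1.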

Additional observations from a re-analysis of the deposited data

How the results depend on the processing

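No paired analysis was possible because the deposited lists combine the 3 samples of each condition, and for the same reason no sample could be left out. The BIBR1532 share of axon guidance regions stayed between 42.5% and 47.0% when the condition-specific lists were limited to scores of at least 2 or 3, to widths of 500 bp or more or to scores other than the most frequent one, when regions within 1 kb were merged, with all contigs and without Robo1. It was 54.9% within 10 kb of the start site and 49.6% with regions assigned by gene body. The 305 condition-specific regions became 44 at 500 bp, 71 within 10 kb and 149 without the most frequent scores, and the 66 genes with a region became 27 at 500 bp. Genes with a BIBR1532, vehicle and common promoter region were 0, 0 and 2 at 500 bp; within 1 kb of the start site 15 had a BIBR1532 region, and within 5 kb 21 and 22 had BIBR1532 and vehicle regions. By the ratio, 3 genes were higher in BIBR1532; the number was 1 at a score of at least 3, 1 after merging, 1 without the most frequent scores, 0 at 500 bp and 0 within 10 kb. The number higher in vehicle, 6, became 0 at 500 bp, 0 within 10 kb and 2 without the most frequent scores. The genes changed as well as the numbers. Without the most frequent scores, Sema3a (4 and 2) was newly higher in BIBR1532 and Dcc (1 and 4) newly higher in vehicle. By gene body, 3 of the 9 calls were kept (Epha2, Epha3 and Plxna2), and Unc5c, Nrp1, Ephb1 and Plxnc1 were new. After merging, 7 of the 9 were kept and Sema6d was new. The difference, BIBR1532 minus vehicle, turned round for Plxna2 at 500 bp (1), for Efnb2 (1) and Slit2 (1) within 10 kb, and for Efnb2 (1), Epha6 (1) and Slit2 (1) by gene body. Within 10 kb the Slit2 difference rests on 1 BIBR1532 region with a score of 1.42. Fewer regions of a gene entered the narrower settings by their construction; other causes were not tested. Of the 9 genes called, Efnb2 alone kept its call without the most frequent scores, since the other 8 fell under the minimum of 5 regions. In that setting, added for these shares after the values were seen, the intergenic share without Efnb2 was 48.7%, against 36.7% with all scores.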

Other observations

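Wide regions near axon guidance genes included both intergenic and intronic ones. Of the BIBR1532 regions 8 were at least 1000 bp wide (6.02%, against 4.58% of the list) and of the vehicle regions 7 (4.07%, against 4.32%). The widest, of the BIBR1532 list, covered 7613 bp on chromosome 5, 474 kb upstream of the Sema3a start, with a score of 8.88; it ranked 41 by width among the 16153 regions of its list. Dcc had a vehicle region of 4003 bp that lay 18.5 kb upstream of its start.

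Lists of cell type markers were counted in the same way, and counts of regions are not levels of expression. Neuron markers had a common promoter region at 1 of 18 genes (Snap25), against 14.2% of all protein-coding genes. They had regions in some list at 16 of 18, against 59.1%, with 25 BIBR1532 and 26 vehicle regions. Astrocyte markers had 0 common promoter regions among 8 genes, with 11 and 12 regions, oligodendrocyte lineage markers 0 of 8 with 5 and 11, microglial markers 0 of 8 with 3 and 3, and endothelial and mural markers 0 of 8 with 3 and 6. Regions in some list were found at 7 astrocyte, 5 oligodendrocyte lineage, 5 microglial and 4 endothelial and mural markers, of 8 each. The share with a region in some list over all protein-coding genes was 59.1%. With lists this short, 0 of 8 was not tested against the 14.2% of all genes. These counts cannot test whether the cultures were neuronal.

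Within 1 kb of a region of any other list lay 9 of the 133 BIBR1532 regions (6.77%, against 12.4% of the list), 9 of the 172 vehicle regions (5.23%, against 11%) and 8 of the 27 common regions (29.6%, against 38.3%). Between the condition-specific lists alone, 6 BIBR1532 regions had a vehicle region within 1 kb (4.51%, against 5.04% of the list) and 6 vehicle regions had a BIBR1532 region as close (3.49%, against 4.38%). The closest BIBR1532 and vehicle pair was 35 bp apart, 47.4 and 47.1 kb downstream of the Efnb2 start.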
